A study of Mus musculus with 2 samples.

Results

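The genes described are the RUNX transcription factor genes Runx1, Runx2 and Runx3, their partner gene Cbfb, the repressor genes Gfi1b and Gfi1, and the repressor cofactor genes Kdm1a and Rcor1. They were taken by name, 8 of the 21938 protein-coding genes of the annotation, and each was examined over its gene body plus 50 kb on each side. Accessible chromatin was mapped by DNase-seq, in which the nuclease DNase I cuts the open DNA of isolated nuclei and the ends of the cuts are read by sequencing. The material was liver of B6NCrl mouse embryos, a C57BL/6N strain, at 11.5 days of development, pooled over male and female embryos. Both libraries, technical replicates 7 and 1, came from the same biosample of biological replicate 1. With 1 biological sample there is no second group, so the values are descriptions without tests, and they cannot show the spread between litters or animals.

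RUNX proteins bind DNA through the Runt domain, and CBFB, which does not contact DNA itself, strengthens that binding. RUNX1 is needed for the blood stem and progenitor cells that colonise the liver of the embryo, where red cells are made at this age. GFI1B and GFI1 are zinc finger repressors whose SNAG domain recruits the histone demethylase KDM1A (LSD1) with its scaffold RCOR1 (CoREST); GFI1B is known for its part in erythroid and megakaryocytic cells, and GFI1 for its part in myeloid and lymphoid cells and stem cells.

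Replicate 7 listed 86036 peaks and replicate 1 listed 42422 peaks. Of the peaks of replicate 7, 39786 (46.2%) overlapped a peak of replicate 1 by at least 1 bp and are called shared below. Peak density is the highest density of cuts in a peak, as the authors deposited it, and a rank percentile gives the share of peaks of the same library with a lower density. The labels name sequencing instruments for replicate 7 alone, so depth, sequencing batch and library cannot be told apart where the libraries differ. As a check of the labelled tissue, shared peaks lay within 1 kb of a start of 6 of 10 erythroid, 5 of 6 haematopoietic progenitor and 2 of 8 hepatoblast marker genes. The share over all protein-coding genes was 59.1%. Counting all peaks of replicate 7, shared or not, the same lists gave 7 of 10, 6 of 6 and 7 of 8, beside 65.0% of all coding genes. Shared start peaks were also found at 2 of 5 endothelial, 1 of 5 macrophage, 1 of 5 megakaryocyte, 5 of 5 mesenchymal, 3 of 4 neuronal and 3 of 4 striated muscle genes. All peaks of replicate 7 gave 3, 2, 3, 5, 4 and 4 genes of these lists, in that order. An accessible start thus did not single out liver or blood genes. In bulk tissue, a site open in few cells cannot be told apart from one that is weakly open in many.

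The accessible sites that the results turn on are printed first, as 300 bases around the centre of the peak in replicate 7 and as the 250 bases upstream of both Runx1 promoters' starts. They were read from RefSeq GRCm38.p6 (mm10), 5′ to 3′ on the minus strand, which is the coding strand of Runx1, Gfi1b and Gfi1. Capitals mark matches, on either strand, to short words known for groups of factors. The GATA word was AGATAA or TGATAA. The composite of an E-box with GATA was CTG and GATAA with 7 to 9 bases between them, as bound by TAL1 and GATA1 together, and it can overlap a GATA match. The RUNX word was TGTGGT or TGCGGT. The GFI word was AAATCNC. For ETS factors the words were CCGGAAG and AGGAAG. The KLF word was CCACACCC or CCCCACCC, and the core of the CTCF motif was searched as well. A match describes the letters and does not show that a factor was bound. The first 3 sequences are sites in the long intron between the Runx1 promoters, 24.4 kb, 110.4 kb and 3.9 kb downstream of the distal start, the next 2 lie 19.6 kb and 23.7 kb downstream of the Gfi1b 5′ end, and the sixth lies at -33.3 kb from the Gfi1 5′ end. The last pair shows how unlike the Runx1 promoters are in base composition, with 44.8% G and C upstream of the distal start and 67.2% upstream of the proximal start.
Runx1 intronic site at 24.4 kb, chr16:92801626-92801925, minus strand: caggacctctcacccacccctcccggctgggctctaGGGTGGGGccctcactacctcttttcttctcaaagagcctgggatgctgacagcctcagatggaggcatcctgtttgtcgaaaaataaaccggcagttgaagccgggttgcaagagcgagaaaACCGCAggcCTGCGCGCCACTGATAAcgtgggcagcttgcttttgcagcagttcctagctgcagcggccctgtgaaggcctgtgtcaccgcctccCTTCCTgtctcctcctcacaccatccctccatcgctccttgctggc
Runx1 intronic site at 110.4 kb, chr16:92715561-92715860, minus strand: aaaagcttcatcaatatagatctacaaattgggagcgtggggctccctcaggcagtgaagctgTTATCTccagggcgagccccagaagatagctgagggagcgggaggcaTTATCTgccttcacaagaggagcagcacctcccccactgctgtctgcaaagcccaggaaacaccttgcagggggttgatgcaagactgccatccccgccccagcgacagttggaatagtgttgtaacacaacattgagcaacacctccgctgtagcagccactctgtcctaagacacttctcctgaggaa
Runx1 intronic site at 3.9 kb, chr16:92822097-92822396, minus strand: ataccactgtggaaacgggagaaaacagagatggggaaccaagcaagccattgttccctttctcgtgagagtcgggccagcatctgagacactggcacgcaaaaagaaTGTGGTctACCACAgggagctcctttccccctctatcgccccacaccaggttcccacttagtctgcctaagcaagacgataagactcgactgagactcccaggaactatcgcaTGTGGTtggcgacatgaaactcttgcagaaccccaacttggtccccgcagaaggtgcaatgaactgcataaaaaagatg
Gfi1b downstream site at 19.6 kb, chr2:28602214-28602513, minus strand: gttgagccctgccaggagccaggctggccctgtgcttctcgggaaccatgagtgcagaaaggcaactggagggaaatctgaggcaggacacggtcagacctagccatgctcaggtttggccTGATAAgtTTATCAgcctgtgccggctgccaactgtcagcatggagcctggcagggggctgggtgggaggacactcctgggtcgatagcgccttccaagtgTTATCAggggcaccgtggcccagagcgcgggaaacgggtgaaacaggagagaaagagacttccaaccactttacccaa
Gfi1b downstream site at 23.7 kb, chr2:28598145-28598444, minus strand: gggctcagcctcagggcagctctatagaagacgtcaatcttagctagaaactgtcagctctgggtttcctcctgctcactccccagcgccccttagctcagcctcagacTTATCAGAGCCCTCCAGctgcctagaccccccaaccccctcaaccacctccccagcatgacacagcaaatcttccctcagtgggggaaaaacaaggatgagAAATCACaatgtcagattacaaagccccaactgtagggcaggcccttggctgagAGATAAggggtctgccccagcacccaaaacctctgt
Gfi1 upstream site at -33.3 kb, chr5:107759137-107759436, minus strand: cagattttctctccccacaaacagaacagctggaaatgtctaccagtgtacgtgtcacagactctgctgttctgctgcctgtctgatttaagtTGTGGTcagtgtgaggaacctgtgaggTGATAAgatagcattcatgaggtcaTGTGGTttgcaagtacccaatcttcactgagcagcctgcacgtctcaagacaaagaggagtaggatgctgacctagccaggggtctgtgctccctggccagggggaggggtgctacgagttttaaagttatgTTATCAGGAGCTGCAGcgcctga
Runx1 distal promoter, chr16:92826150-92826399, minus strand: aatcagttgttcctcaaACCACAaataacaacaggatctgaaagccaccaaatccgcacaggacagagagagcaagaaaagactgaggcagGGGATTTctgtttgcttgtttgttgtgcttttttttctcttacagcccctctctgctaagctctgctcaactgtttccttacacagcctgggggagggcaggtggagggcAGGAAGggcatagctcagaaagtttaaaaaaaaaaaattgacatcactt
Runx1 proximal promoter, chr16:92697329-92697578, minus strand: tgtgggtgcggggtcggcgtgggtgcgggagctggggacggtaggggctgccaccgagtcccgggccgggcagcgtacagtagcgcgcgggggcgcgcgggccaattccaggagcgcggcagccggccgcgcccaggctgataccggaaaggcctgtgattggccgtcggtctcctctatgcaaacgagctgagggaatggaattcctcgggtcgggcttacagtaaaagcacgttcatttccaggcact

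All 8 genes had accessible chromatin within 1 kb of an annotated start in both libraries. Among the members, 8 of 8 had a shared start peak, placed at most 1 kb from a start, beside 59.1% of all protein-coding genes, and each library alone gave 8 of 8, beside 65.0% of all coding genes in replicate 7 and 59.6% in replicate 1. Within 500 bp of a start, 6 members had a shared peak. The shared start peaks of Gfi1b and Gfi1 lay further off, at -718 bp and 538 bp from the nearest start. The share of all coding genes at 500 bp is not given here. Each of the 8 loci also held at least 1 shared peak more than 1 kb from any start, beside 60.1% of the coding genes. The 8 loci held 130 peaks of replicate 7 and 98 peaks of replicate 1. Of these, 76 peaks of replicate 7 were shared, which is 58.5% of its member peaks, beside 46.2% of all its peaks; from the other side, 77.6% of the member peaks of replicate 1 were shared, beside 89.9% of all its peaks. The members thus stood above the whole list by one library's share and below it by the other's. Of the 76 shared peaks, 23 were at a member's own start, 13 at the start of another gene and 40 away from starts, with 13 of those 40 in member introns, 2 in member exons, 16 between genes and 9 inside other genes.

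The member peaks of 1 library alone resembled those of the whole lists. In replicate 7 the 54 such peaks at the members had a median density of 0.489, against 1.09 for its 76 shared ones, beside 0.469 and 1.16 over all its peaks. In replicate 1 the 22 member peaks without a partner had a median of 0.929, against 1.33 for shared ones, beside 0.929 and 1.31 over all. Of the 54 peaks of replicate 7, 16.7% overlapped the longer list of replicate 1, beside 14.4% over all its unshared peaks. Of the 22 peaks of replicate 1, 16 were at a start of any gene (72.7%), beside 74.9% over all, and 12 were at a member's own start. Gfi1 had 5 of those 12, Runx2 had 3, and Cbfb and Rcor1 had 2 each.

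**Figure D1:**
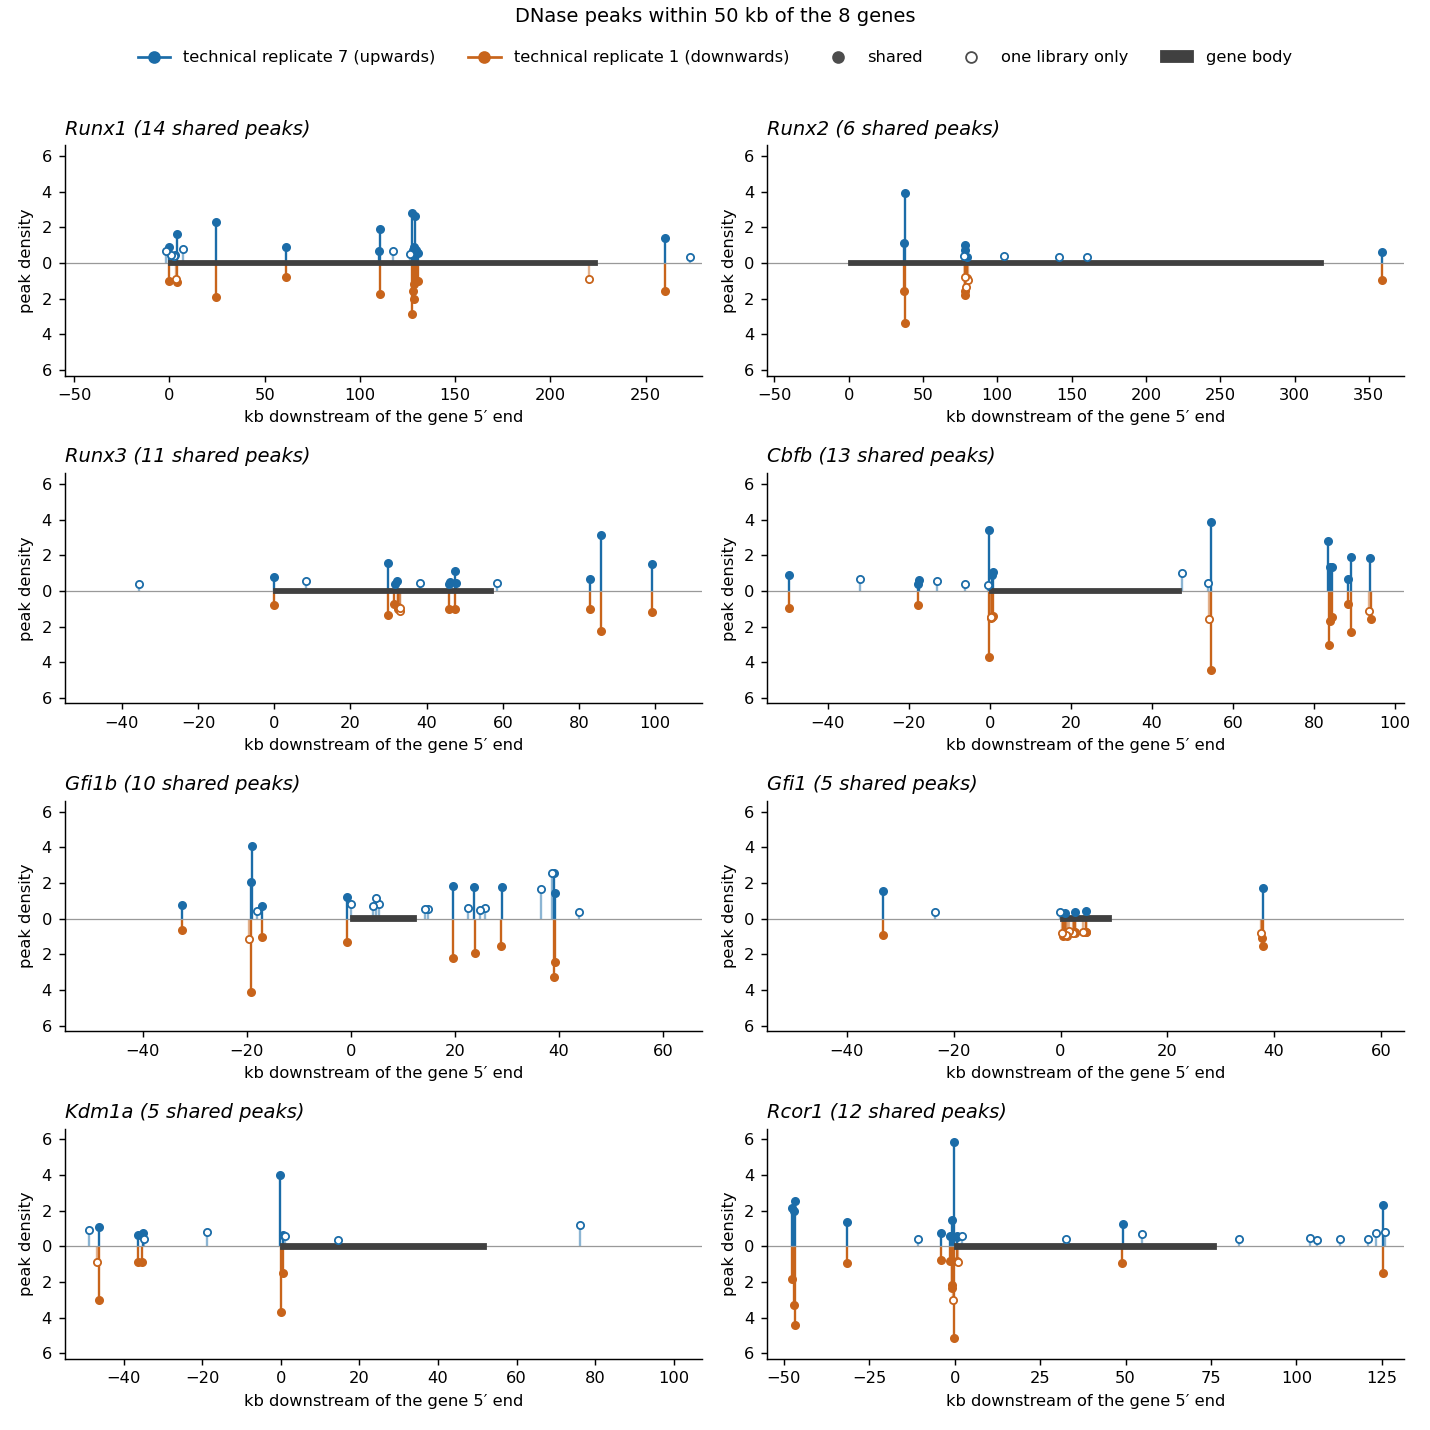
Peak density (vertical axis, replicate 7 upwards and replicate 1 downwards, with the axis labels giving size) against distance from the gene 5′ end in kb, for each of the 8 genes; filled points are peaks that overlap between the libraries, open points were listed in 1 library, and the dark bar is the gene body. The tallest line is the Rcor1 promoter, at 5.86 in replicate 7 and 5.13 in replicate 1, and the Runx1 peaks gather between 0 and 130.4 kb.

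The density of shared sites differed widely among the members. Scaled to 100 kb of locus, Gfi1b had 8.89 shared peaks, Cbfb 8.82, Runx3 6.99, Rcor1 6.80, Gfi1 4.57, Runx1 4.31, Kdm1a 3.29 and Runx2 1.43. The median of the 8 members was 5.69, beside a median of 3.03 over all protein-coding genes. Gfi1b and Cbfb stood at the 86.3 and 86.1 percentiles of coding genes, while Runx2, the RUNX gene of bone formation, stood at the 31.3 percentile. Away from starts the order changed. Runx3 led with 5.08 shared peaks per 100 kb, then Rcor1 with 4.53 and Gfi1b with 4.44, and the member median was 3.07, beside 0.805 over all coding genes. Cbfb had 3.39, with 8 of its 13 shared peaks at starts, 3 at its own and 5 at those of neighbouring genes.

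**Figure D2:**
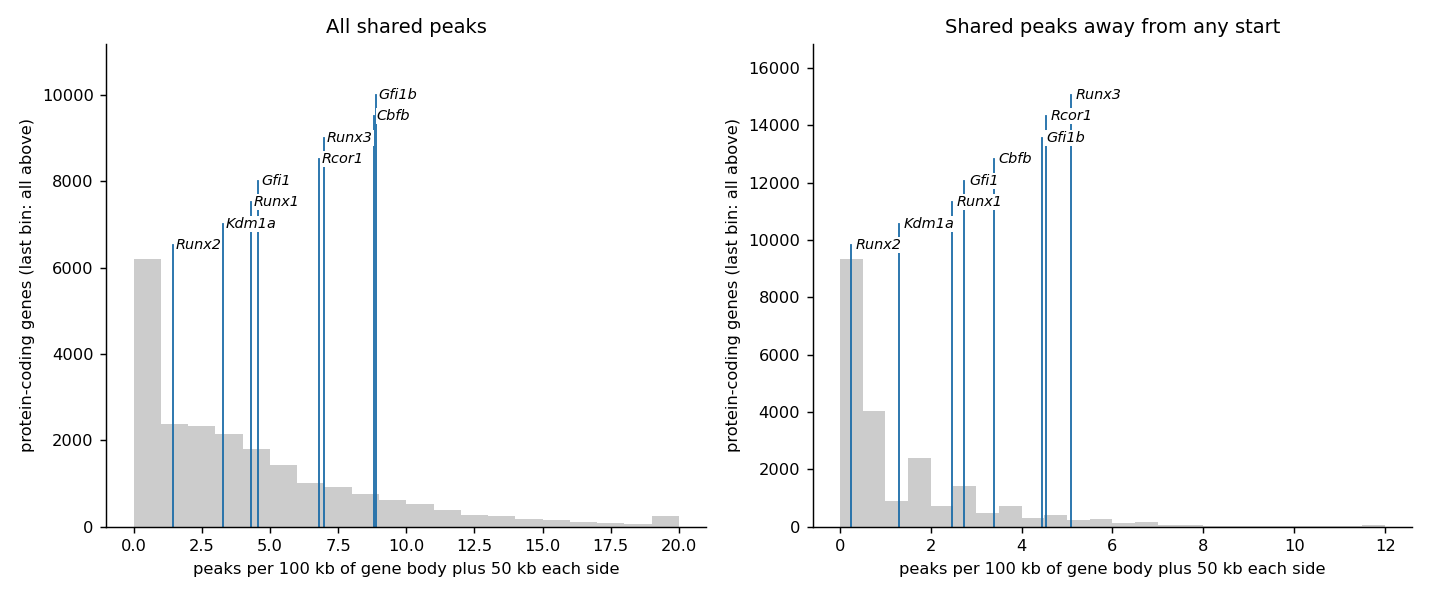
Histograms of shared peaks per 100 kb of gene body plus 50 kb each side over 21938 protein-coding genes (grey, vertical axis in genes), for all shared peaks at left and for those more than 1 kb from any start at right; blue lines mark the 8 members. Runx2 lies in the low part of both panels, at 1.43 and 0.239, and Gfi1b leads at left with 8.89 while Runx3 leads at right with 5.08.

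At the promoters, the cofactor and partner genes stood above the DNA-binding factors. Rcor1, Kdm1a and Cbfb held the first 3 places in both libraries, taking the strongest shared peak of replicate 7 at each promoter and the peak of replicate 1 with the longest overlap. The Rcor1 promoter, chr12:111039063-111039361, had a density of 5.86 in replicate 7 and 5.13 in replicate 1, at the 99.2 and 98.7 rank percentiles of those libraries. Kdm1a, chr4:136602656-136602922, had 4.03 in replicate 7 and 3.70 in replicate 1, and Cbfb, chr8:105170429-105170709, had 3.40 in replicate 7 and 3.70 in replicate 1. Kdm1a and Cbfb thus differed in replicate 7, with 95% counting intervals of 3.78 to 4.28 and 3.17 to 3.63, and had the same value in replicate 1. These intervals take 1 step of the density as 1 cut, which the file headers do not state, and cover counting error only.

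The lineage factors followed, with the Runx1 proximal promoter first among them. It had 2.66 in replicate 7 and 2 in replicate 1 (chr16:92697292-92697576). Below it came Gfi1b, with 1.20 in replicate 7 and 1.29 in replicate 1, the Runx2 proximal promoter, with 1.03 in replicate 7 and 1.55 in replicate 1, and the Runx1 distal promoter, with 0.917 in replicate 7 and 0.980 in replicate 1. In replicate 7 the intervals of neighbours in that order overlapped from Gfi1b through Runx2 and the Runx1 distal promoter to the Runx3 distal promoter. In replicate 1 no neighbours below Cbfb had separate intervals, and Runx2 came ahead of Gfi1b. Gfi1 came last in replicate 7, at 0.344. In replicate 1 the same Gfi1 peak overlapped peaks of 0.859 and 0.99, and no place among the weaker promoters can be given to it there. The Runx2 proximal peak also overlapped a second peak of replicate 1, at 1.79.

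**Figure D3:**
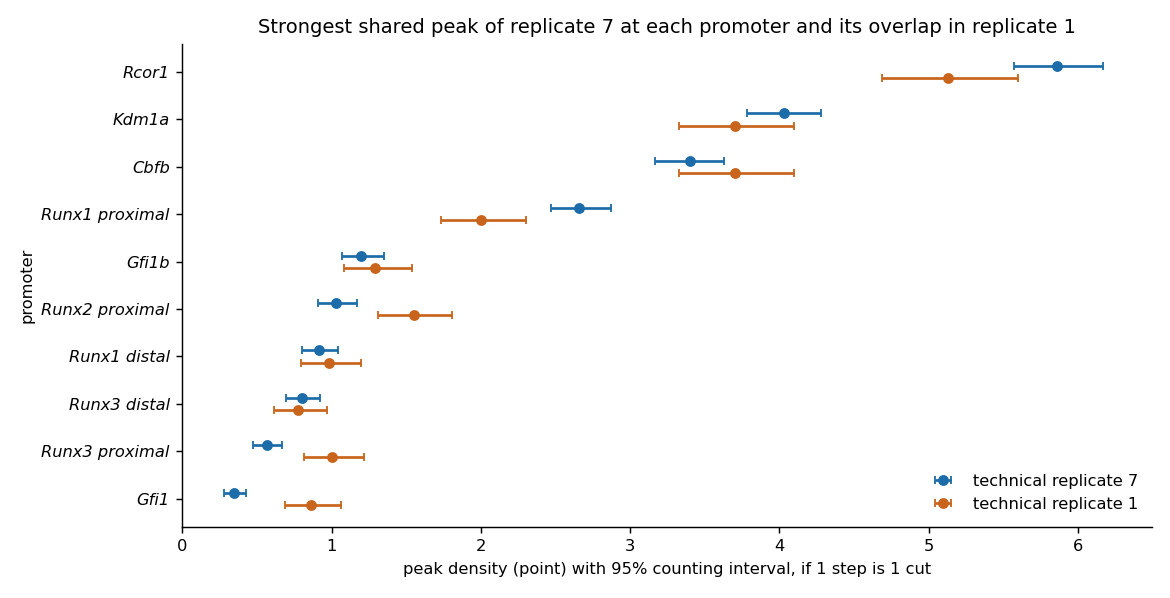
Density of the strongest shared peak of replicate 7 at each promoter, and of the replicate 1 peak with the longest overlap (points), with its 95% counting interval (bars), for replicate 7 in blue and replicate 1 in orange, ordered from the highest to the lowest in replicate 7. Rcor1, Kdm1a and Cbfb lie between 3.40 and 5.86, and the plotted peaks from Gfi1b down lie at or under 1.55 in both libraries.

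Runx1 was the member with the most shared peaks, 14 of 22 peaks of replicate 7, in a gene of 225 kb. Its distal promoter (P1) and proximal promoter (P2) start 128821 bp apart, and both were accessible in both libraries. The distal start had 1 shared peak, chr16:92826010-92826264, of 255 bp, inside a hotspot of 426 bp in replicate 7 and 360 bp in replicate 1. Hotspots are broader regions of raised cutting, and the authors gave this one a −log10 false discovery rate of 13.3 in replicate 7 and 4.35 in replicate 1. The proximal starts had 5 shared peaks that together covered 1531 bp, and the hotspot over the main proximal start was 2680 bp long in replicate 7 and 2289 bp in replicate 1, at 62.6 in replicate 7 and 18.6 in replicate 1. The proximal promoter was therefore broader and, by its strongest peak, more accessible than the distal one: 2.66 against 0.917 in replicate 7 and 2 against 0.980 in replicate 1, with counting intervals that do not overlap in either library. Around the centre of the distal promoter peak, 150 bases held 42.7% G and C, against 66.7% for the proximal peak.

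The remaining peaks at the proximal starts were weaker and were shared without exception. They lay at 128.0, 128.3, 129.4 and 130.4 kb from the distal start, with densities of 0.509 to 0.905 in replicate 7. The one at 130.4 kb belongs to a further annotated start, 1203 bp downstream of the main proximal start, and no hotspot of either library covered that start itself. In the 250 bases upstream of the proximal start, none of the 7 motifs matched. The corresponding stretch of the distal promoter, printed above, had a RUNX match, an ETS match and a GFI match, none of them overlapped by a listed footprint. Among 41493 upstream stretches of the same length in the annotation, 17.6% held a RUNX match, 35.4% an ETS match and 9.99% a GFI match.

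The annotated first intron of the longest Runx1 transcript is only 229 bp long and held no peak in either library. The accessible sites lay in the intron that follows, chr16:92695738-92825588, which spans 129851 bp between the promoters. Away from starts it held 12 peaks of replicate 7 and 6 peaks of replicate 1, with 7 of replicate 7 shared. The strongest, chr16:92698718-92698939, lay at 127.3 kb, just upstream of the proximal start and within the hotspot of that promoter, and had a density of 2.82 in replicate 7 and 2.83 in replicate 1. It was stronger than the proximal promoter peak itself in replicate 1, with intervals of 2.51 to 3.18 against 1.73 to 2.30, while in replicate 7 those intervals overlapped. A weaker peak beside it, at 127.8 kb, had 0.741 in replicate 7 and overlapped a peak of 1.58 in replicate 1.

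Further from either promoter, 4 intronic positions carried shared peaks. The site at 24.4 kb, chr16:92801643-92801910, had 2.31 in replicate 7 and 1.91 in replicate 1. The site at 110.4 kb, chr16:92715572-92715850, had 1.90 in replicate 7 and 1.72 in replicate 1, and a weaker peak beside it at 110.2 kb fell under the same peak of replicate 1. These 2 sites were more accessible than the distal promoter in both libraries. The site at 3.9 kb, chr16:92822107-92822388, had 1.64 in replicate 7 and 1.06 in replicate 1, and the site at 61.2 kb, chr16:92764844-92765109, had 0.881 in replicate 7 and 0.768 in replicate 1. Neither of these differed from the distal promoter beyond the counting intervals of replicate 1. Outside the gene, a peak 260.3 kb downstream of the distal start, chr16:92565775-92565995, had 1.39 in replicate 7 and 1.58 in replicate 1.

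**Figure D4:**
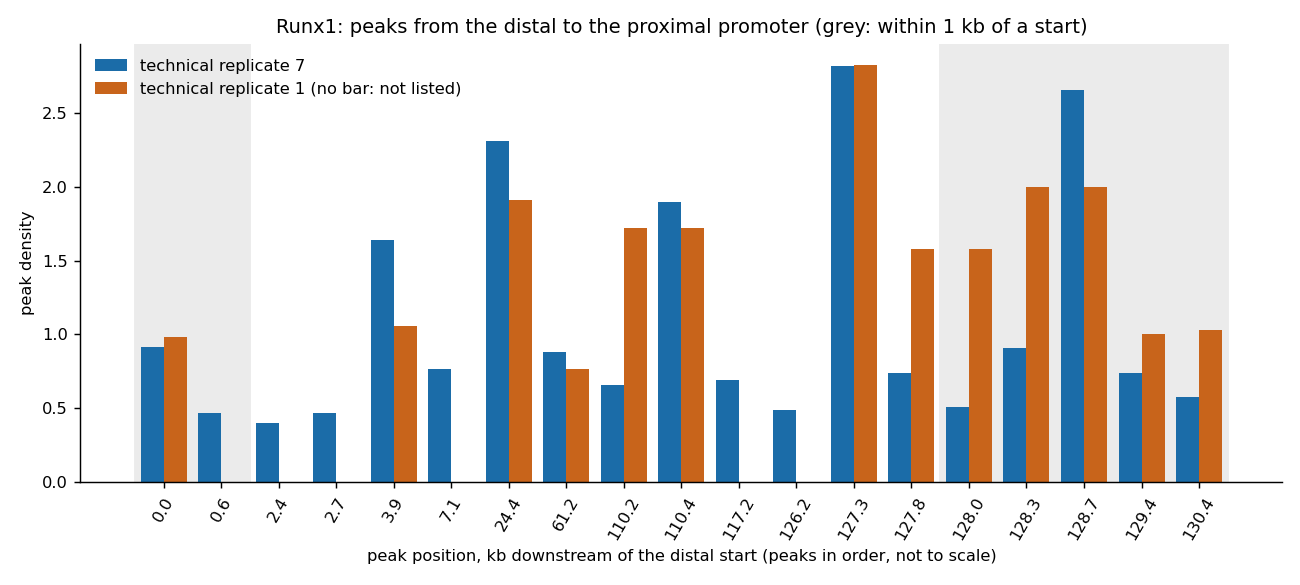
Peak density (vertical axis) of each replicate 7 peak from the distal to the proximal Runx1 promoter (horizontal axis, kb downstream of the distal start, in order and not to scale), in blue, beside the overlapping peak of replicate 1 in orange; a replicate 1 peak that overlaps 2 peaks of replicate 7 is drawn at both, and grey marks peaks within 1 kb of a start. The intronic sites at 24.4 and 110.4 kb reach 2.31 and 1.90 in replicate 7, above the 0.917 of the distal promoter at 0 kb.

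The printed Runx1 sites differed in their motifs. At 24.4 kb a RUNX match (ACCGCA, read on the other strand) lay 3 bases before an E-box with GATA (CTGCGCGCCACTGATAA). A footprint, a short stretch of low cutting inside an open site, overlapped both matches in each library. It ran over chr16:92801747-92801765 in replicate 7 and chr16:92801755-92801767 in replicate 1, and reached the GATA bases in neither. A KLF match in the same sequence was likewise overlapped by footprints of both libraries. The 110.4 kb site had 2 GATA matches, and the 3.9 kb site had 3 RUNX matches, 2 of which face each other across 2 bases. None of these 5 matches was overlapped by a listed footprint. Among 300-base windows of all 15797 shared peaks away from starts, 26% held a RUNX match, 23.3% a GATA match and 5.10% an E-box with GATA.

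Runx2 was the least accessible RUNX locus for its size, with 6 shared peaks over 419 kb. Its distal starts, at the 5′ end of the gene, had no peak and no hotspot in either library. The proximal starts had 3 shared peaks, at 78.4, 78.6 and 79.4 kb, and replicate 1 had 3 further peaks there that replicate 7 did not list. These shared peaks had 1.03, 0.737 and 0.369 in replicate 7 and 1.55, 1.79 and 0.828 in replicate 1. Each density was higher in replicate 1, with separate intervals of 0.911 to 1.17 in replicate 7 and 1.31 to 1.81 in replicate 1 for the first. All shared peaks also had a higher median there, 1.31 against 1.16 in replicate 7. By rank percentile the first peak was lower in replicate 1, at 61.7 against 71.6 in replicate 7. The other 2 were higher in replicate 1, at 68.3 against 58.4 and 18.4 against 12.5. The strongest peak of the locus belonged to Supt3, whose start lies inside the Runx2 gene body at 37.7 kb: it had 3.92 in replicate 7 and 3.36 in replicate 1. Only 1 shared peak of the Runx2 locus was away from starts, between genes at 358.9 kb, with 0.641 in replicate 7 and 0.939 in replicate 1.

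Runx3, known for roles in sensory neurons and T cells, had 11 shared peaks in 157 kb, with weak starts and stronger distal sites. Its distal start peak, chr4:135120371-135120652, had 0.801 in replicate 7 and 0.778 in replicate 1, and the stronger of its 2 proximal start peaks, chr4:135152733-135153157, had 0.565 in replicate 7 and 1.00 in replicate 1. The distal promoter was thus higher in replicate 7, with separate intervals, and in replicate 1 the intervals overlapped. The strongest site away from starts was between genes at 85.8 kb, chr4:135206354-135206602, with 3.13 in replicate 7 and 2.27 in replicate 1, and an ETS match there was overlapped by footprints of both libraries. Next came an intronic site at 30.0 kb, with 1.55 in replicate 7 and 1.37 in replicate 1, and a site inside the neighbouring gene Clic4 at 99.2 kb, with 1.5 in replicate 7 and 1.16 in replicate 1. All 3 exceeded both Runx3 promoters in density in replicate 7. The distance to a gene does not show which gene a site acts on.

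Cbfb had 13 shared peaks in 147 kb. Its start carried 3 shared peaks in a hotspot of 2130 bp in replicate 7 and 1827 bp in replicate 1, and its gene body had no shared peak beyond the start. The weaker start peaks, at 0.6 and 0.8 kb, had 0.913 and 1.06 in replicate 7 and 1.46 and 1.40 in replicate 1. Of the 5 shared Cbfb-locus peaks away from starts, the strongest lay inside Tradd at 89.2 kb, chr8:105259739-105259965, with 1.90 in replicate 7 and 2.30 in replicate 1. That peak held RUNX, ETS and CTCF matches within 75 bp of its centre. The next by rank, at -49.5 kb and -17.5 kb, had 0.913 and 0.637 in replicate 7 and 0.939 and 0.788 in replicate 1.

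Gfi1b and Gfi1, the paralogous repressor genes, differed in where their accessible sites lay. The Gfi1b locus held 10 shared peaks against 5 at Gfi1, 23 peaks of replicate 7 against 7, and 10 peaks of replicate 1 against 17. By peak count, the order of the genes thus turned round in replicate 1. By number of hotspots, broader regions of raised cutting, it did not: Gfi1b had 13 against 5 at Gfi1 in replicate 1, and 21 against 9 in replicate 7. Away from starts Gfi1b had 5 shared peaks, 4 between genes and 1 inside Tsc1, and Gfi1 had 3, of which 2 were in its exons and 1 was inside Evi5. At its own starts Gfi1b had 2 peaks in replicate 7 and 1 in replicate 1, while Gfi1 had 2 in replicate 7 and 9 in replicate 1. The excess of Gfi1 peaks in replicate 1 therefore lay at its own starts, and 4 of those 9 peaks overlapped a peak of replicate 7. All 9 lay within hotspots of 1252 bp and 2968 bp, so the count depends on how these regions were split into peaks. The loci are of similar length, 113 kb for Gfi1b and 109 kb for Gfi1.

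**Figure D5:**
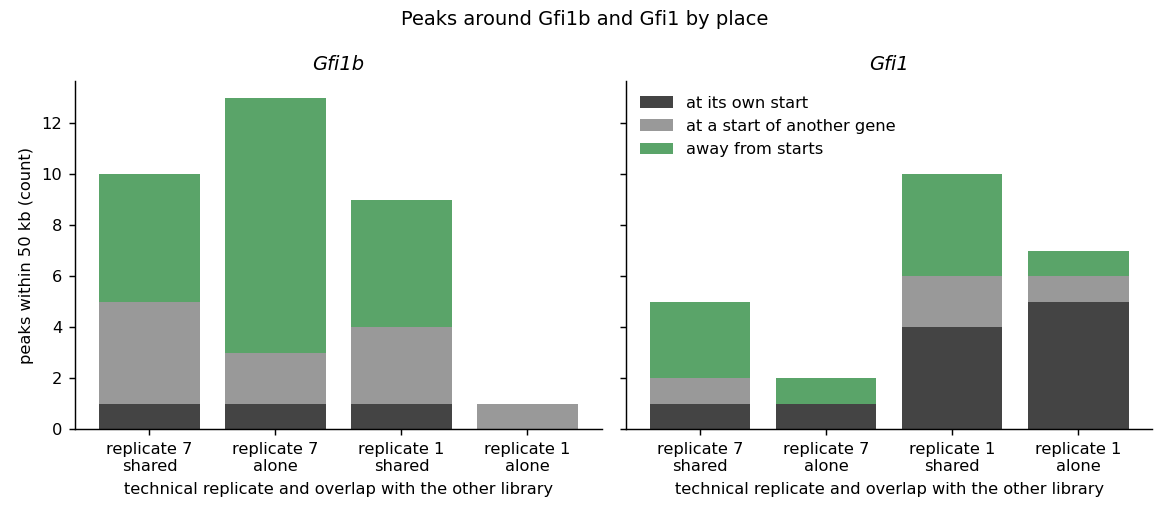
Number of peaks within 50 kb of the gene body (vertical axis) for Gfi1b at left and Gfi1 at right, for each technical replicate split into peaks that overlap the other library (shared) and peaks that do not (alone), stacked by place. Replicate 7 alone has 13 peaks at Gfi1b, 10 of them away from starts, and replicate 1 alone has 7 at Gfi1, 5 of them at its own starts.

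Around the Gfi1b start, the shared peak lay at -0.7 kb, chr2:28622593-28622807, with 1.20 in replicate 7 and 1.29 in replicate 1. A second peak covered the start itself, chr2:28621738-28622160, with 0.805 in replicate 7, and was found in replicate 1 only in its longer, less strict list. Over the Gfi1b starts replicate 7 had a hotspot of 560 bp at 7.06 and replicate 1 had one of 347 bp at 2.42. The Gfi1 starts had no hotspot across them in replicate 7, and in replicate 1 a hotspot of 2968 bp covered them at 5.73. The shared Gfi1 start peak, chr5:107725120-107725414, had 0.344 in replicate 7 and 0.859 in replicate 1, which are the 8.08 and 21.1 rank percentiles. A second replicate 1 peak overlapped the same Gfi1 peak, with 0.99 and an interval of 0.804 to 1.21. The Gfi1b start peak was therefore above that of Gfi1 in replicate 7, with intervals of 1.07 to 1.35 against 0.276 to 0.425, while in replicate 1 its interval of 1.08 to 1.54 overlapped that of the stronger Gfi1 peak.

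Downstream of Gfi1b, 3 shared sites between genes had higher densities than its start peak. The site at 19.6 kb, chr2:28602216-28602513, had 1.85 in replicate 7 and 2.18 in replicate 1. The site at 23.7 kb, chr2:28598119-28598472, had 1.79 in replicate 7 and 1.93 in replicate 1, and the site at 29.0 kb, chr2:28592923-28593126, had 1.75 in replicate 7 and 1.53 in replicate 1. Their counting intervals overlapped among themselves in replicate 7 and lay above that of the start peak. In replicate 1 the interval of the site at 29.0 kb overlapped that of the start peak. The first holds 3 GATA matches, with TGATAA and TTATCA facing each other across 2 bases, and 1 of the matches was overlapped by a footprint of replicate 1 only. The second holds an E-box with GATA (TTATCAGAGCCCTCCAG, read on the other strand) that footprints of both libraries overlapped. Both footprints ended at chr2:28598330, the first position of the GATA match at chr2:28598330-28598335. The second also holds a GFI match (AAATCAC), the word read by GFI1B and GFI1, that a footprint of replicate 1 overlapped. The third had a CTCF match that footprints of both libraries overlapped. A further site between genes, at 36.6 kb, chr2:28585258-28585477, had 1.64 in replicate 7 and was in neither list of replicate 1.

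On the upstream side of Gfi1b, shared peaks at -17.0 kb and, inside Tsc1, at -32.5 kb were weaker, with 0.681 and 0.757 in replicate 7 and 1.01 and 0.626 in replicate 1. Replicate 7 had 3 further peaks in the Gfi1b gene body, at 4.3, 4.8 and 5.4 kb, with densities of 0.709, 1.17 and 0.805. None of these was in the stricter list of replicate 1, and those at 4.3 and 4.8 kb were in its longer list.

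The strongest Gfi1 site away from starts lay inside Evi5 at -33.3 kb, chr5:107759101-107759474, with 1.54 in replicate 7 and 0.919 in replicate 1. Its printed sequence has RUNX matches (TGTGGT) at 2 positions on either side of a GATA match (TGATAA), and an E-box with GATA near its end, and none of these matches was overlapped by a listed footprint. The exonic peaks at 4.8 kb and 2.8 kb had 0.437 and 0.389 in replicate 7 and 0.758 and 0.788 in replicate 1. In replicate 7 the lowest of all shared member peaks was the Gfi1 start peak at 0.344.

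Kdm1a and Rcor1, the demethylase and its scaffold, had strong promoters but differed in distal sites. Kdm1a had 5 shared peaks in 152 kb, of which 2 were at its own start, 1 was at the start of another gene and 2 lay inside the upstream neighbours Ephb2 and Lactbl1. The Ephb2 site, at -46.4 kb, had 1.07 in replicate 7 and 3 in replicate 1, and the Lactbl1 site, at -35.1 kb, had 0.745 in replicate 7 and 0.848 in replicate 1. No shared peak lay in the Kdm1a gene body beyond its start, where a second peak at 0.5 kb had 0.629 in replicate 7 and 1.48 in replicate 1. Rcor1 had 12 shared peaks in 177 kb, and 8 of them were away from starts.

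The Rcor1 start region was the most accessible of the set, with a hotspot of 2721 bp at 125 in replicate 7 and 2798 bp at 42.1 in replicate 1. Besides the promoter peak it held shared start peaks of 0.501 to 1.47 in replicate 7. A group of 3 adjoining peaks between genes followed, at -46.9, -47.1 and -47.6 kb, with 2.56, 1.97 and 2.17 in replicate 7 and 4.4, 3.31 and 1.81 in replicate 1. The first of them held a CTCF match that footprints of both libraries overlapped. The only shared intronic Rcor1 peak, at 49.1 kb, chr12:111088358-111088573, had 1.27 in replicate 7 and 0.939 in replicate 1 and held GATA and CTCF matches.

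Within 75 bp of the peak centre, GATA matches were found in 12 of the 40 shared member peaks away from starts (30%), beside 13.8% of all 15797 such peaks, and in 0 of 36 at starts, beside 3.75%. The 12 were spread over 5 loci, with 5 at Runx1, 3 at Rcor1, 2 at Gfi1b and 1 each at Runx3 and Gfi1. RUNX matches were found in 10 of the 40 peaks (25%), beside 15.1% of all, with 4 at Runx1 and 2 each at Cbfb, Gfi1 and Rcor1. The RUNX loci Runx2 and Runx3 had only 1 and 8 such peaks, too few to set beside that share, and none held a RUNX match. Shared start peaks of both loci did hold RUNX matches. So did the replicate 1 peaks at 47.4 and 82.9 kb of Runx3, whose centres differ from those searched. Both words occurred together in 4 of the 40 (10%), beside 2.42% of all, and 3 of the 4 were at Runx1 and the other was the Gfi1 site inside Evi5; this pairing was chosen after its values were seen. The E-box with GATA was found in 3 (7.5%), beside 3.60%, at 1 site each of Runx1, Gfi1b and Rcor1. The other words were near or under the share of all such peaks, with ETS in 22.5% beside 23.0%, GFI in 5% beside 4.34%, KLF in 5% beside 7.51% and CTCF in 12.5% beside 18.3%. In all 5 of the CTCF peaks the match was overlapped by footprints of both libraries, beside 84.4% of the 2895 such peaks in all. The member peaks had a median G and C content of 58.0%, beside 55.3% for all, and peaks of 1 locus are not independent of each other.

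The member loci held 160 footprints in replicate 7, of which 102 lay in shared peaks, and 398 in replicate 1, of which 217 lay in shared peaks. The lists come from different processing and their numbers are not compared. Footprints found in both lists made up 51.9% of the member footprints of replicate 7, beside 45.4% of all its footprints, and 20.9% of those of replicate 1, beside 22.0% of all. Of the replicate 7 footprints, 83 were in both lists: 15 of 29 at Rcor1, 15 of 29 at Gfi1b, 13 of 29 at Runx1 and 6 of 12 at Gfi1. The other loci had 10 of 21 at Cbfb, 9 of 19 at Runx3, 8 of 10 at Runx2 and 7 of 11 at Kdm1a. At least 1 of the 7 words was recorded for 29 of 160 member footprints in replicate 7 and 32 of 398 in replicate 1. A recorded word can reach beyond its footprint. These counts do not follow the overlap of 1 bp used for the printed sites. At the Runx1 site at 24.4 kb, the replicate 1 footprint was counted for its RUNX match only. The share over all footprints is not given here, so the counts do not show whether member footprints were poor in these words. Footprints in the main Runx1 proximal promoter peak and in the strong site just upstream of it had none recorded, like most others.

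The other genes of the pathway were 34 members of CoREST and related deacetylase complexes, SNAG-domain factors and RUNX partners. Of these, 33 had a shared start peak, beside 59.1% of all protein-coding genes. Among the highest ranks were those of Hdac1, a deacetylase of CoREST (6.39 in replicate 7 and 5.16 in replicate 1) and Kdm1b, the paralogue of Kdm1a (5.30 in replicate 7 and 5.73 in replicate 1). Only Ovol1, a zinc finger factor of epithelia, had no start peak in either library.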

How the data were processed

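Per the labels, 2 DNase-seq libraries, technical replicates 7 and 1, were made from biological replicate 1 of mouse liver and mapped to mm10. The authors called peaks and hotspots on each library separately. Neither the aligner nor the callers are given in the sources used here. Per the file headers, the peak lists hold signal, the highest density of cuts in each peak, and the hotspots hold the −log10 of the false discovery rate at its highest in each hotspot. The authors deposited 2 peak lists per library, and the shorter, taken as the stricter, was used. Per the accompanying notes, the footprints of technical replicate 1 came from an earlier alignment of that library. The densities fell on steps of 0.00401 in technical replicate 7 and 0.0101 in technical replicate 1 for 100% of values under 2, within 0.02 steps. If 1 step is 1 cut, an assumption no header states, technical replicate 7 held 249.7 M and technical replicate 1 held 99.0 M cuts, and exact Poisson 95% intervals follow. They cover counting error only, since reads are not independent molecules.

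Genes and starts were those of GENCODE vM21 on mm10, with basic transcripts for starts. A peak belonged to a locus, and to a start within 1 kb, by its midpoint. Peaks of technical replicate 7 that overlapped 1 of technical replicate 1 by 1 bp or more were shared. A motif match was set beside a footprint where they overlapped by 1 bp or more, except in the counts of footprints with a recorded word. The motif search covered both strands of the 150 bp centred on each peak. All 8 members are named, with every shared peak at their own starts summarised and the 3 shared peaks away from starts with the highest mean rank percentile; the Runx1 sites between its promoters and all Gfi1b and Gfi1 shared peaks that are not at other genes' starts are also given. Of the other pathway genes, the 3 with the highest mean rank percentile at a start and any without a start peak are named; 1 gene that this takes is not reported here. The annotated first intron of Runx1 is short, so the long intron between its promoters was counted with it. No test was run, because there is 1 biological sample. Alternatives were the longer lists, a 50% overlap, the stronger 50% of each list, other windows, and each library alone. The steps of interval overlap, peaks at starts and the motif search, the last for the GATA word only, were tested on simulated data. The members, gene lists and rules were chosen with earlier results of these data known. Further processings of technical replicate 1 were not used here. Python 3.11.15, pandas 2.3.3, numpy 2.4.6, scipy 1.17.1 and pysam 0.24.0 were used.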

Additional observations from a re-analysis of the deposited data

How the results depend on the processing

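The direction held in every alternative tried but 1: the Gfi1b locus had 5 more shared peaks than the Gfi1 locus, 16 more with technical replicate 7 alone and -7 with technical replicate 1 alone. Over single libraries, the peak count of the 8 loci ran from 98 to 130, beside 76 shared, the median per locus from 13 to 17, beside 10.5, the Runx1 promoters and long intron from 12 to 19, beside 13, footprints in peaks from 137 to 276, beside 102 in shared peaks, and peaks with a GATA match from 12 to 21, beside 12. With the stronger 50% of each list, 41 shared peaks remained in the 8 loci, with a median of 5 per locus, 7 at Runx1 and 6 with a GATA match. With 20 kb each side, the median per locus was 6.5 and 60 footprints lay in shared peaks, and the longer footprint list of technical replicate 7 put 217 there. The shares of member and pathway genes with a start peak moved by less than 1.5 times in every alternative. Members with a shared start peak went from 8 to 6 within 500 bp of a start, and also to 6 with the stronger 50% of each list. Pathway genes ran from 32 to 34, beside 33. Of 16 moved counts for single loci, the Gfi1 locus went to 10 with the longer lists and 1 with the stronger 50%. No paired analysis was possible because there is 1 group. Member peaks of technical replicate 7 alone had a median density of 0.489, beside 1.09 for shared ones; the part of depth in this was not tested, and a peak missing from the list of technical replicate 1 may still be open there.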
